A study of Homo sapiens with 9 samples.

Results

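Chromatin sites of DDX21 were compared between A375 cells given A77 1726 plus nucleotides and cells given A77 1726 without them. A375 is an established human melanoma line. Each group was 1 library of cells treated for 24 h with A77 1726 at 25 µM, and the kind and amount of the nucleotides are not given in the labels. Cells given DMSO, with DDX21 mapped in the same way, and CDK9 libraries of the 3 treatments are used only as further readouts at the same sites. The sites compared are all peaks of the 2 DDX21 lists, 7922 with nucleotides and 4375 with A77 1726 alone, together 12297 of the 27469 peaks in the 6 lists of the series. Peaks were called shared when they overlapped by at least 1 bp. Coordinates are of hg19, counted from 1. No gene is assigned to a site, since the annotation at hand is of another build.

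DDX21 is a DEAD-box RNA helicase, known best from the nucleolus, where it takes part in the transcription of ribosomal RNA genes and the processing of their RNA. It is also found on chromatin outside the nucleolus, at genes transcribed by RNA polymerase II, where it has been linked to the release of CDK9, the kinase of P-TEFb, from its inhibitory complex with 7SK RNA. A77 1726 is the active metabolite of leflunomide. It inhibits dihydroorotate dehydrogenase, which makes a precursor of the pyrimidine nucleotides, and nucleotides given to the cells can bypass that step. Both groups compared here had the inhibitor, and the supply of nucleotides was what differed by the labels.

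The list with nucleotides was 1.81 times as long as the list of A77 1726 alone and covered 2.46 times as many bases, 2947137 bp against 1199442 bp. Its median peak width was 334 bp, against 241 bp with A77 1726 alone. Its summits stood on a median of 63 fragments, against 46 with A77 1726 alone, where the number of fragments over a summit (the pileup) was worked out from the deposited values. The numbers of tags ran the other way, since by the lowest local background and fragment length the library of A77 1726 alone held about 1.20 times the tags of the library with nucleotides. The pileup has an upper limit of 262 fragments with nucleotides and 232 with A77 1726 alone, reached by 54 and 3 peaks, so the strongest sites are compressed. With 1 library per group, no difference below can be set against a replicate error, and differences in immunoprecipitation between libraries cannot be told apart from differences in binding. Intervals are exact binomial (Clopper-Pearson) 95% intervals and cover counting error only.

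Nearly all DDX21 sites found with A77 1726 alone were also found with nucleotides, and the list with nucleotides held almost as many again. Of the 7922 peaks with nucleotides, 4236 overlapped an A77 1726 peak, a share of 53.5% (52.4 to 54.6), and 3686, or 46.5% (45.4 to 47.6), overlapped none. Of the 4375 peaks with A77 1726 alone, 4342 lay on a peak of the other list, which is 99.2% (98.9 to 99.5), and 33, or 0.754%, did not. These made 7955 separate sites, of which 4236 were in both lists. When both lists were reduced to their top 4375 peaks by −log10 q, 89.1% of peaks with nucleotides had an A77 1726 peak and 476 had none, so the share in common depends on list length.

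Sites present only with nucleotides were the weak end of that list. Fold enrichment is the authors' value for the summit over its local background and is compared only within a list. Its median for these sites was 5.47, against 17.9 for the peaks of the same list that had an A77 1726 peak. Their median pileup was 31 fragments, against 120 fragments, and their median width was 226 bp, against 435 bp. A pileup below 76 fragments, the lower quartile of the peaks in both lists, was found for 3487 of them, or 94.6%. Although they were 46.5% of the peaks, they covered 31.7% of the bases of the list.

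**Figure D1:**
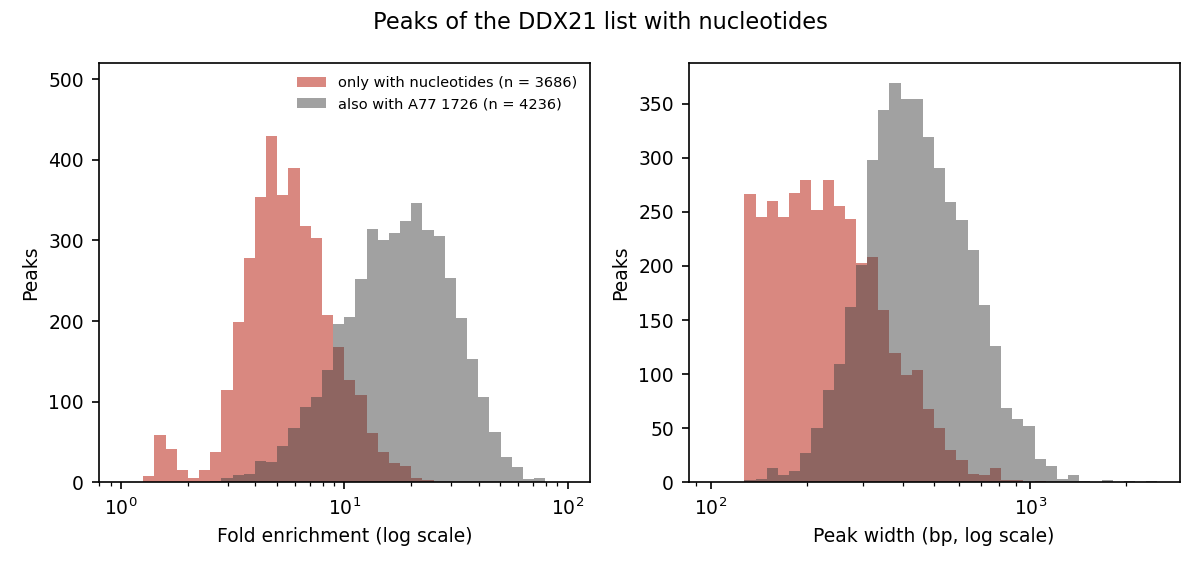
Fold enrichment (left, log scale) and width in bp (right, log scale) of the 3686 DDX21 peaks found only with nucleotides and of the 4236 that also had an A77 1726 peak, all from the list with nucleotides, as numbers of peaks per bin. The peaks found only with nucleotides lie lower on both axes, with medians of 5.47 and 226 bp against 17.9 and 435 bp.

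The share of peaks with an A77 1726 counterpart climbed with their rank in the list with nucleotides. In the lowest decile of −log10 q, 5 of 792 peaks had one, which is 0.631% (0.205 to 1.47). In the third decile 6.82% (5.16 to 8.80) had one, and the share was 38.6% (35.2 to 42.1) in the fifth and 74.7% (71.6 to 77.7) in the sixth. It was 93.8% (91.9 to 95.4) in the seventh decile, and all 792 peaks of the ninth decile and all 793 of the tenth had an A77 1726 peak. Within the fifth decile, where both classes were well filled, 487 peaks without an A77 1726 peak had a median width of 294 bp and 306 peaks with one had 326 bp, at median fold enrichments of 8.70 and 8.59. Fold enrichment and −log10 q come from the same summit and background, so the decile itself holds the enrichments close together.

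**Figure D2:**
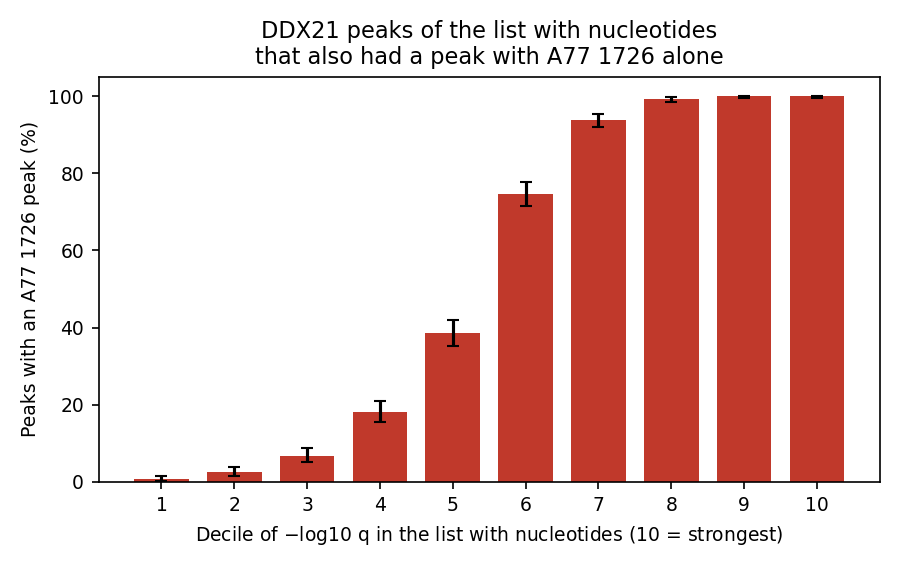
Percentage of DDX21 peaks of the list with nucleotides that overlapped an A77 1726 peak, by decile of −log10 q within the list with nucleotides (1 weakest, 10 strongest). Bars are shares and error bars are exact binomial 95% intervals. The share passes from 0.631% in the lowest decile to 100% in the highest 2.

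Only 5 peaks of the eighth decile or above lacked an A77 1726 peak. The strongest site found only with nucleotides lay on chromosome 1 from 154155488 to 154155858, ranked 2069 in its list, with a pileup of 143 fragments with nucleotides, no peak with A77 1726 alone and 123 fragments in DMSO. On chromosome 3 from 179065205 to 179065686 the pileup was 104 fragments with nucleotides and 120 in DMSO. On chromosome 9 from 131133470 to 131133982 it was 104 fragments with nucleotides and 108 in DMSO. These sites were thus well above the median of 63 fragments in the list with nucleotides, and were also listed in cells never given the inhibitor.

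All of the 10 strongest sites found only with nucleotides had a DMSO peak, with pileups of 87 to 143 fragments with nucleotides and 65 to 128 fragments in DMSO. The others lay on chromosome 12 from 98987261 to 98987556, chromosome 5 from 16465701 to 16466194, chromosome 1 from 101360277 to 101360943, chromosome 19 from 57831605 to 57832032, chromosome 1 from 93811207 to 93811583, chromosome 1 from 202976313 to 202976585 and chromosome 7 from 56019454 to 56019708. Of the 10, only the site at 93811207 lay on a CDK9 peak with nucleotides, and none lay on a CDK9 peak with A77 1726 alone or in DMSO. Among all 3686 of the class, those shares were 3.88%, 0.0271% and 4.40%, so the 10 did not stand apart. Typical sites of the class were far lower. The 3 at its median rank lay on chromosome 16 from 15068591 to 15068918, chromosome 20 from 18568511 to 18568715 and chromosome 9 from 86535867 to 86536040, each with 30 fragments with nucleotides, and with 25, 46 and 30 fragments in DMSO.

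**Figure D3:**
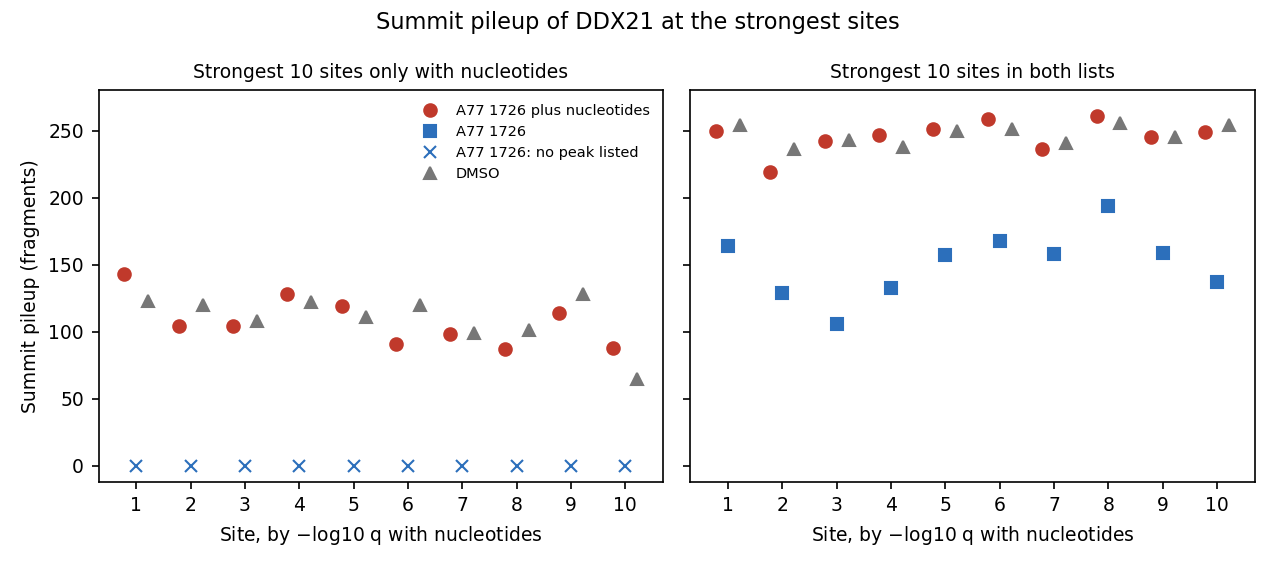
Summit pileup in fragments (linear axis) at the 10 strongest DDX21 sites found only with nucleotides (left) and the 10 strongest found in both lists (right), ordered by −log10 q with nucleotides. Circles are A77 1726 plus nucleotides, squares A77 1726 alone, crosses at the foot mark that no A77 1726 peak is listed, and triangles are DMSO. At the sites in both lists the pileups are 219 to 261 fragments with nucleotides and 106 to 194 fragments with A77 1726 alone.

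Most sites found only with nucleotides were DDX21 sites of DMSO cells as well. Of the 3686, 2901 overlapped a DMSO peak, a share of 78.7% (77.35 to 80.02), against 4232 of the 4236 peaks in both lists, and 90.0% of the list with nucleotides as a whole. By rank, 47.6% of such peaks in the lowest decile, 85.2% in the third and 99.8% in the fifth had a DMSO peak. At the 2901 sites, the summit height with nucleotides was a median of 1.01 times that in DMSO (quartiles 0.863 and 1.16). Only sites called in both of these lists enter this ratio, so the 785 without a DMSO peak are not in it. To obtain heights, pileups were put in units of their list's lowest background, which allows for the number of tags and the fragment length.

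The 785 peaks found with nucleotides and in neither other DDX21 list were narrower and lower, with a median width of 167 bp, fold enrichment of 4.12 and pileup of 23 fragments. Part of them stood on very high local background. Of these 785, 124, or 15.8% (13.3 to 18.5), had a background of over 10 times the lowest of the list, against 88 of the 2901 that had a DMSO peak, or 3.03% (2.44 to 3.72). The share was 5.75% (5.02 to 6.55) of all 3686 peaks found only with nucleotides, 6.78% (6.04 to 7.57) of the peaks in both lists and 6.30% of the whole list. The median fold enrichment of the 124 was 1.59, so a large pileup there was only slightly above its surroundings. Of the 109 peaks found only with nucleotides whose pileup reached 120 fragments, the median of peaks in both lists, 107 had such a background.

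A number of the high-background peaks lay in clusters. Of 18 clusters in the list with nucleotides, each a run of at least 5 peaks with gaps of at most 10 kb, 5 had a median background of over 50 times the lowest. They held 77 peaks with nucleotides, 0 with A77 1726 alone and 12 in DMSO, with median fold enrichments of 1.53 to 1.62. The longest lay on chromosome 16 from 46386880 to 46435530, with 39 peaks with nucleotides and none in either other DDX21 list. The next lay on chromosome 10 from 42380153 to 42400600, with 20 peaks with nucleotides, 0 with A77 1726 alone and 1 in DMSO. The other 13 clusters held 94 peaks with nucleotides, 62 with A77 1726 alone and 75 in DMSO. Clusters were defined by peaks with nucleotides only, so runs dense only in another list could not appear. The counts thus favour the list with nucleotides by the way clusters were picked.

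Sites found only with nucleotides were listed on every chromosome, in different shares. They were 58.2% (52.3 to 64.0) of the 285 peaks with nucleotides on chromosome 4 and 57.5% (51.4 to 63.4) of the 275 on chromosome X, against 46.5% overall. On chromosome 19 they were 36.8% (33.4 to 40.3) of 764 peaks, and on chromosome 20 they were 38.5% (32.6 to 44.7) of 262. On chromosome Y the share was 57.1% of 21 peaks, though whether reads placed there belong there was not tested. Strength moved with this share: 37.5% of the peaks on chromosome 4 and 35.3% of those on chromosome X were in the upper 5 deciles of the list, against 62.4% on chromosome 19 and 58.4% on chromosome 20. The part of peak strength in the chromosome shares was not tested. Few of these sites were the flanks of shared ones, since 213 of the 3686, or 5.78%, had an A77 1726 peak within 1 kb and 45.7% had one within 100 kb.

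At sites in both lists, called DDX21 peaks were wider with nucleotides and had summits close together. Over the 4236 sites the median width was 435 bp with nucleotides and 246 bp with A77 1726 alone. The median ratio of widths at a site was 1.68 (quartiles 1.41 and 2.08), and the peak was wider with nucleotides at 4204 sites and narrower at 32. At 4133 sites each list had exactly 1 peak, and at 3941 of these, or 95.4%, the A77 1726 peak lay wholly inside the peak with nucleotides. The 2 summits were a median of 12 bp apart, and 93.8% were within 50 bp. At 103 sites 1 peak with nucleotides covered several A77 1726 peaks, up to 4, and at 0 sites was it the reverse.

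**Figure D4:**
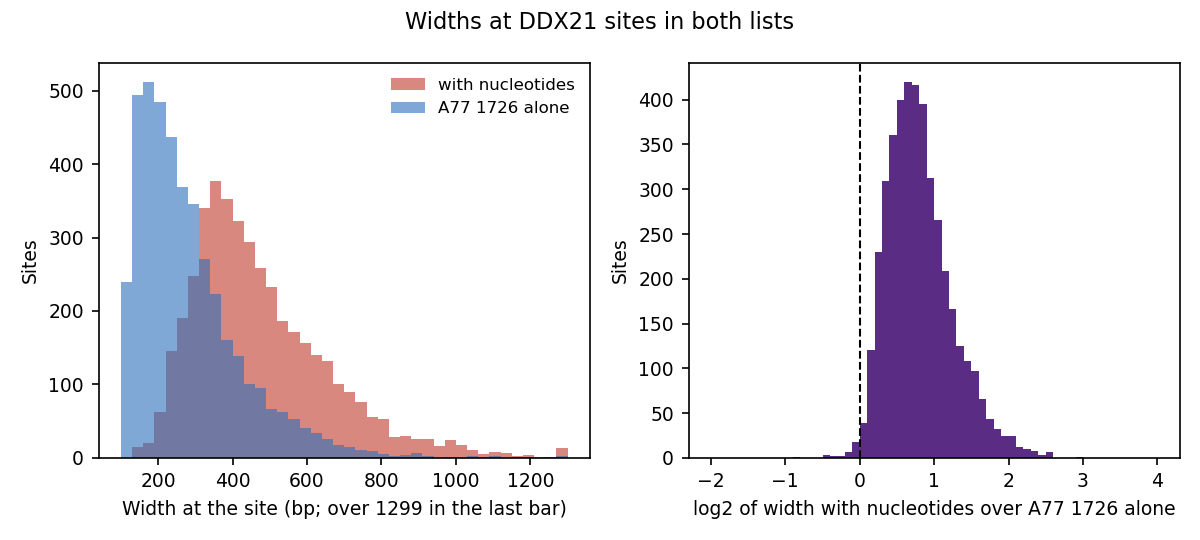
Peak widths at the 4236 DDX21 sites found in both lists. Left, widths in bp with nucleotides and with A77 1726 alone, as numbers of sites, with medians of 435 and 246 bp. Right, the log2 ratio of the 2 widths at each site, nucleotides over A77 1726 alone, with a dashed line at equal width that 4204 sites exceed.

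Summits in both lists were also higher with nucleotides. The median pileup was 120 fragments with nucleotides and 48 with A77 1726 alone, and the median ratio of heights was 2.48 (order-statistic 95% interval 2.45 to 2.50, quartiles 2.07 and 2.95). The height was at least 2-fold higher with nucleotides at 3328 sites, or 78.6%, and lower at 8 sites, or 0.189%. Without scaling, the median ratio of pileups was 2.34, and with pileups divided by the median background of each list it was 1.72. Sites too low with A77 1726 to be called there are not in these ratios. Set beside DMSO, the heights at these sites were a median of 1.06 times those of DMSO with nucleotides and 0.418 times with A77 1726 alone. Pileups kept their order across the 4236 sites, with a Spearman rho of 0.942 and a Pearson r of 0.915 on log2 pileups, which describe sites of the same 2 libraries that share background and mappability.

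**Figure D5:**
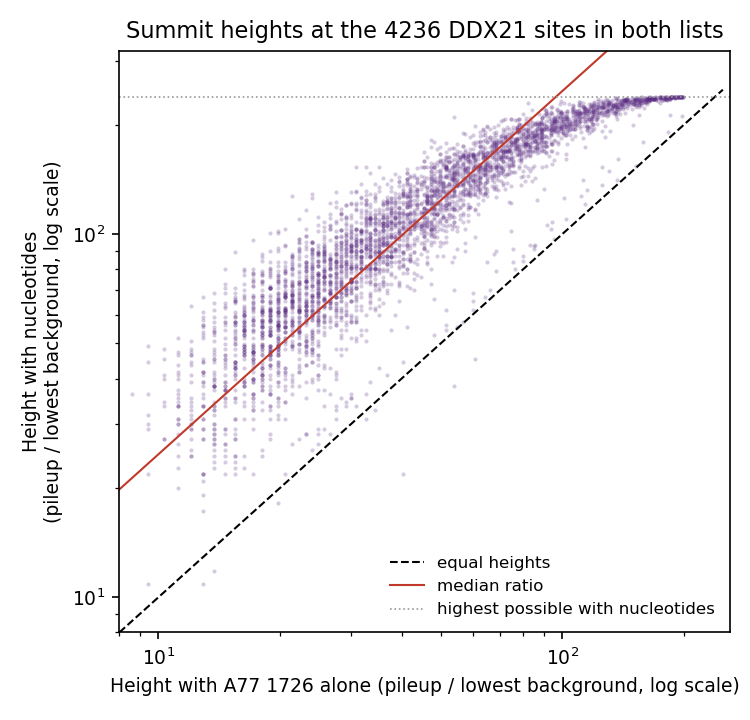
Summit height at each of the 4236 DDX21 sites in both lists, with nucleotides (vertical) against A77 1726 alone (horizontal), both as pileup over the lowest background of the list, on log axes. The dashed line marks equal heights, the solid line the median ratio of 2.48 and the dotted line the highest value possible with nucleotides. Most points lie along the solid line and bend under the dotted one, and a thin band of points follows the dashed line.

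Among sites called in both lists, the median height ratio was largest at the middle deciles of strength. Sites were ordered by the decile of their DMSO peak, a list that neither height comes from. This order does not undo the filter that a site had to be called with the inhibitor alone too. Few sites of the low deciles passed it, 5 in the first and 112 in the fourth, against 832 in the highest. Sites too low with the inhibitor alone to be called are missing from their medians. Whether the ratio itself depends on strength can thus not be read from the low deciles, and the part of this filter was not tested. The median ratio was 1.98 at 47 sites of the third decile, 2.58 at 286 of the fifth, 2.79 at 522 of the sixth, 2.66 at 824 of the eighth and 1.94 at 832 of the highest. At 743 sites the pileup with nucleotides was 80% of the limit or more, and the median ratio there was 1.82, against 2.61 at the other 3493.

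The strongest site of the list with nucleotides lay on chromosome 6 from 42531289 to 42532199, with 250 fragments with nucleotides, 164 with A77 1726 alone and 254 in DMSO. The second, on chromosome 17 from 7094768 to 7095183, had 219 fragments with nucleotides, 129 with A77 1726 alone and 236 in DMSO. The third, on chromosome 14 from 82000001 to 82000670, had 242 fragments with nucleotides, 106 with A77 1726 alone and 243 in DMSO. At all 10 of the strongest sites the pileup was higher with nucleotides than with A77 1726 alone, and their height ratios ran from 1.42 to 2.42. The other 7 lay on chromosome 6 from 43596929 to 43597555 and from 43214688 to 43215389, chromosome 22 from 41681871 to 41682672, chromosome 2 from 242447843 to 242448493, chromosome 16 from 2097468 to 2098184, chromosome 4 from 152681796 to 152682419 and chromosome 19 from 37568932 to 37569565. Of the 10, the site on chromosome 16 alone overlapped a CDK9 peak with nucleotides, where 6.54% of all 4236 peaks in both lists did.

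Typical sites in both lists showed a similar step. At the median rank, the site on chromosome 22 from 37838490 to 37838849 had 80 fragments with nucleotides and 40 with A77 1726 alone, and a fold enrichment in the list with nucleotides of 33.4. The site on chromosome 1 from 1590265 to 1590901 had 116 fragments with nucleotides and 42 with A77 1726 alone. That on chromosome 18 from 2571057 to 2571647 had 116 fragments with nucleotides and 43 with A77 1726 alone. Their height ratios were 2.12, 2.92 and 2.86.

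To keep very low pileups out, the extremes of the ratio were read among sites with a fair pileup in both lists. Of 3120 such sites with at least 30 fragments in each list, the ratio was highest on chromosome 16 from 28223352 to 28223696, at 4.97, with 169 fragments with nucleotides and 36 with A77 1726 alone. It was 4.76 on chromosome 9 from 66553422 to 66554059, with 144 fragments with nucleotides and 32 with A77 1726 alone. The next were chromosome 1 from 2322831 to 2323451, at 4.68, chromosome X from 11777449 to 11777847, at 4.58, and chromosome 9 from 133568867 to 133569338, at 4.47. None of these 5 overlapped a CDK9 peak in any list. Such peaks were rare among all 4236 peaks in both lists, at 6.54% with nucleotides, 0.873% with A77 1726 alone and 8.90% in DMSO. No trait of the 5 can thus be read from their absence.

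A small number of sites had about equal heights in both libraries. The ratio was under 1.3 at 127 sites, of which 50 were near the pileup limit. Of the other 77, 35 had a local background of over 10 times the lowest in the A77 1726 list, 11 overlapped a CDK9 peak with A77 1726 alone, and 33 had neither. By local background in the A77 1726 list, the median ratio was 2.63 at 502 sites of up to 2 times the lowest, 2.42 at 1139 sites of over 4 and up to 6 times, 1.64 at 59 sites of over 10 and up to 20 times, and 1.13 at 23 sites above that. By the background in the DMSO list, it was 2.60 at 278 sites of up to 2 times, 2.12 at 249 sites of over 10 and up to 20 times, and 1.18 at 20 sites above 20 times. Local background is not subtracted from the heights, so at high background it is a larger part of both, and its part in these ratios was not tested. The cut of 1.3 and the split by background were chosen after the heights were seen.

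Some of the sites with about equal heights lay side by side. On chromosome 20 from 26188745 to 26190570, 4 sites had 63 to 177 fragments with nucleotides and 66 to 160 with A77 1726 alone, at backgrounds of 14.4 to 49.4 times the lowest. On chromosome Y from 10033423 to 10037974, 5 sites had 32 to 121 fragments with nucleotides and 30 to 119 with A77 1726 alone. Backgrounds at these 5 were 3.43 to 39.1 times the lowest, and whether reads placed on chromosome Y belong there was not tested. On chromosome 2 from 133011869 to 133039148, 6 sites had ratios of 1.01 to 1.25, and at 33961182 to 33965717 of chromosome 16, 4 sites had ratios of 1.03 to 1.13. Of these 19 sites, 0 overlapped a CDK9 peak with A77 1726 alone, a peak that 0.873% of all sites in both lists had.

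DDX21 sites that carried CDK9 with A77 1726 alone differed less in height than the rest. There were 37 such sites in both lists, with a median ratio of 1.46 (quartiles 1.28 and 1.81), against 2.48 at the other 4199. The ratio was at least 2 at 5 of the 37, or 13.5%, against 78.6% of all sites in both lists. Among sites with a background of at most 10 times the lowest in the A77 1726 list, the median ratio was also 1.46 at 29 sites with CDK9. It was 2.49 at 4125 such sites without CDK9. With A77 1726 alone the median pileup of the 37 was 47 fragments, close to the 48 of the other 4199. With nucleotides it was 56 fragments, against 121. The part of strength in the difference was not tested. Their median width ratio was 1.67, against 1.68 over all sites in both lists. This split was made after the lowest ratios were seen. The CDK9 list behind it held 290 peaks, with a shortest peak of 50 bp, against 128 bp in the CDK9 list of DMSO. Sites without a CDK9 peak in that list may thus differ from those in the other CDK9 lists.

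Of these, 5 lay together on chromosome 17 from 18965209 to 19093593. They had 76 to 100 fragments with nucleotides and 63 to 89 with A77 1726 alone, with ratios of 1.05 to 1.31 at backgrounds of 3.19 to 6.86 times the lowest. Among sites with at least 30 fragments in each list, the lowest ratio was on chromosome 8 from 43092765 to 43093218, at 0.706, with 42 fragments with nucleotides and 63 with A77 1726 alone. It was 0.745 on chromosome 9 from 35657692 to 35657952, with 50 fragments with nucleotides and 71 with A77 1726 alone, and 0.947 on chromosome 1 from 28975049 to 28975587, with 34 fragments with nucleotides and 38 with A77 1726 alone. These 3 each overlapped a CDK9 peak with A77 1726 alone. The other 2 of the lowest 5, on chromosome 1 from 108113006 to 108113217 and chromosome 2 from 133038555 to 133038768, had ratios of 0.953 and 1.01 and no CDK9 peak in any list.

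The share of DDX21 sites that carried CDK9 with nucleotides was lower among sites seen only with nucleotides than among sites in both lists. Of the 3686, 143 overlapped a CDK9 peak with nucleotides, a share of 3.88% (3.28 to 4.55), against 277 of 4236, or 6.54% (5.81 to 7.33), and 5.30% of all DDX21 peaks with nucleotides. Within the fourth decile the shares were 3.86% (2.51 to 5.64) of 648 peaks only with nucleotides and 12.5% (7.58 to 19.0) of 144 peaks in both lists. Within the fifth decile they were 3.49% (2.05 to 5.53) of 487 and 6.86% (4.30 to 10.3) of 306, with overlapping intervals. A wider peak meets an overlap of 1 bp more easily, and the classes differed in width. Median widths were 226 bp only with nucleotides and 435 bp in both lists, and 267 and 302 bp within the fourth decile. The part of width in these shares was not tested. Of the 143, 116 had a DDX21 peak in DMSO, which is 81.1% against 78.7% of the 3686. A CDK9 peak in DMSO was found at 61 of the 143, or 42.7%, against 4.40% of the 3686. Of the 143, 1 had a CDK9 peak with A77 1726 alone, in a list of 290 peaks, against 3099 CDK9 peaks with nucleotides. These 2 CDK9 lists are not on one footing. The shortest peak was 50 bp with A77 1726 alone and 129 bp with nucleotides, and the pileup limits were 100 and 258 fragments. The part of this in the list lengths was not tested. With peaks of −log10 q of at least 5 in every list, the share on CDK9 among sites seen only with nucleotides was 2.25%. That cut shortened the CDK9 list with nucleotides too, whose lower quartile of −log10 q was 3.84. The share among sites in both lists was not computed under it.

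The 33 peaks found only in the list of A77 1726 alone were weak, and 32 of them lay in the lowest 3 deciles of their list. Their median pileup was 16 fragments and their median width 146 bp. A DMSO peak was found at 9 of them, or 27.3% (13.3 to 45.5), against 99.3% of the whole A77 1726 list. The strongest lay on chromosome 8 from 43094708 to 43094924, with 49 fragments, and with 2 more it fell in a stretch that ends at 43097008. The second, on chromosome 2 from 224903342 to 224903534, had 23 fragments. The other 3 of the strongest 5 had 23 to 36 fragments and were on chromosome 1 (203429791 to 203429946), chromosome 11 (123453969 to 123454178) and chromosome 14 (50329223 to 50329410). At the median rank, a peak of chromosome 1 starting at 149811748 had 19 fragments, and peaks of chromosome 2 starting at 224837440 and 224849528 had 13 and 14. CDK9 peaks with A77 1726 alone overlapped 5 of the 33, a share of 15.2% (5.11 to 31.9), against 0.960% of the whole list. CDK9 peaks of the other treatments were found at more of the 33, at 10, or 30.3% (15.6 to 48.7), both with nucleotides and in DMSO. These intervals count neighbouring peaks as separate. The 3 peaks of the chromosome 8 stretch each lay on a CDK9 peak with nucleotides. The 3 named on chromosome 2 each lay on a CDK9 peak in DMSO. Among the 4342 A77 1726 peaks that had a peak with nucleotides, those shares were 6.26% with nucleotides and 8.38% in DMSO. The number of 33 depends on how peaks are matched: it was 16 with a −log10 q of at least 5, 154 with summits within 250 bp, 253 without peaks at high background and 371 among the top 4375 peaks of each list.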

How the data were processed

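DDX21 ChIP-seq peak lists of A375 cells were used, 1 library per group, with CDK9 lists of the same treatments for comparison; 3 input libraries were not used here. The submitters' processing notes name Bowtie, MACS2 2.0 and hg19. Neither the control nor the parameters of the calling are known here. Each list was made from 1 library, and all −log10 q values in the deposited lists lie above 1.3. The authors deposited, per peak, a fold enrichment (a ratio over local background), −log10 p and −log10 q values, and a score that is −log10 q rescaled.

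From these, the summit pileup and local background were solved with a Poisson tail, within 0.001 of the deposited −log10 p, for every peak. Height is the pileup over the lowest background of its list. Total tags per library were not given, so depth is known only through this estimate. Peaks of the A77 1726 and nucleotide lists that overlapped by at least 1 bp were joined into sites, with the highest summit of each list kept. Shares have exact 95% binomial intervals and medians have order-statistic intervals, covering counting error only. No test was made, as groups hold 1 library each. Steps were tested on simulated data.

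Sites named are the top 10 by −log10 q of each class of the list with nucleotides, the top 5 of A77 1726 alone, the 5 highest and 5 lowest height ratios with at least 30 fragments in both lists, and the 3 at the median rank of each class. Stretches and splits by background or by CDK9 with A77 1726 were added after values were seen. The members, lists and comparisons were chosen with earlier results of these data known. Gene lists, promoters and motifs had been planned, but the annotation at hand is of another build than the peaks and was not used here. Alternatives covered a stricter −log10 q, the overlap rule, equal list lengths, merged peaks, high background, contigs and the scaling of heights. Python 3.11.15, numpy 2.4.6, pandas 2.3.3, scipy 1.17.1 and matplotlib 3.10.9 were used.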

Additional observations from a re-analysis of the deposited data

How the results depend on the processing

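Of 50 alternatives computed for 8 results, 31 left the value within its counting interval or within 1.5 times the count, and 19 moved it. A reversed direction was looked for only in the width and height ratios, where 0 alternatives gave one. Shares and counts have no direction in this sense. Cutting each DDX21 list, DMSO included, to its top 4375 peaks moved most results. Of peaks with nucleotides, 89.1% then had an A77 1726 peak, and 91.5% of A77 1726 peaks had a peak with nucleotides. The cut left 476 peaks found only with nucleotides and 371 only with A77 1726 alone. Of those only with nucleotides, 67.4% had a DMSO peak, where DMSO peaks beyond the top 4375 of 8321 count as absent. In the whole DMSO list, 99.8% of such peaks of the fifth decile had one. A further setting was a −log10 q of at least 5 in every list, DMSO and CDK9 included. The shares in common were then 54.8% of the list with nucleotides and 99.6% of the A77 1726 list. It left 16 peaks found only with A77 1726 alone. Of peaks only with nucleotides, 80.9% had a DMSO peak and 2.25% a CDK9 peak in the lists so cut. Summits within 250 bp gave 96.5% and 154 for the A77 1726 list. Without peaks of background over 10 times the lowest these were 94.1% and 253, where the filter can drop the peak of one list and keep its partner. Merging within 1 kb gave 56.2% for the list with nucleotides, and an overlap of 50% of the shorter peak gave 77.2% with a DMSO peak. The median height ratio was 2.34 from raw pileups, 1.72 over the median background and 2.61 under 80% of the pileup limit, the last added after seeing the data. The median background of a list moves with the peaks called in it. Except where stated, the cause of these moves was not tested. Leaving out the mitochondrial genome and contigs removed no DDX21 peak. No paired analysis was possible because each group has 1 library, so no library could be left out and no result has a replicate check.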

Other observations

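The list with nucleotides also held dense runs of DDX21 peaks with peaks in all 3 treatments, in different numbers. These runs, too, were picked by their peaks with nucleotides. On chromosome X from 114960357 to 115009512 there were 17 peaks with nucleotides, 20 with A77 1726 alone and 17 in DMSO, and 1 of the 17 lacked an A77 1726 peak. On chromosome 19 from 49217490 to 49250729 there were 6 peaks with nucleotides, 5 with A77 1726 alone and 6 in DMSO, at a median pileup of 192 fragments with nucleotides. A further run on chromosome 19 from 49468963 to 49497262 had 8 peaks with nucleotides, 6 with A77 1726 alone and 8 in DMSO. On chromosome 21 from 9825380 to 9836202 there were 11 peaks with nucleotides, 2 with A77 1726 alone and 8 in DMSO, and 10 of the 11 lacked an A77 1726 peak.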
